A study of Saccharomyces cerevisiae with 36 samples.

Results

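The genes described here encode the proteins of the yeast cytosolic ribosome. They were chosen by name, as every row whose standard gene name begins with RPL, RPS or RPP followed by a number. This matched 138 of the 6295 open reading frames in the table. RPP1, which carries such a name but encodes a subunit of the nuclear RNase P and MRP enzymes, was removed. The 137 genes left comprise 76 RPL genes of the large subunit, 56 RPS genes of the small subunit and the 5 RPP genes of the large subunit's stalk.

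Ribosomal protein genes are among the most highly transcribed genes of a growing yeast cell, and most of them exist as a pair of paralogues, A and B, that encode identical or nearly identical proteins. Their promoters are bound by Rap1, with Fhl1 and its coactivator Ifh1, and their transcription follows growth signals through the TOR and protein kinase A pathways. In many acute stresses their transcripts are known to fall together, as part of the environmental stress response. The large subunit carries the peptidyl transferase centre, the small subunit decodes the message, and the stalk recruits translation factors to the ribosome.

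Cells of the laboratory strain DBY8268, related to S288c, and of the wild isolates M22 and YPS163 were grown in log phase in YPD medium at 30 °C and given ethanol to 5% by volume. On each 2-colour array, total RNA from ethanol-treated cells was compared with RNA of the same strain in log phase. Arrays in triplicate covered 30 min in DBY8268, M22, YPS163, YPS163 MATa, and the YPS163 MATa derivatives hap1D and msn2D, which lack the heme-responsive activator HAP1 and the stress activator MSN2. Single arrays covered 15, 45 and 60 min in DBY8268, M22 and YPS163, and 3 log-phase comparisons without ethanol, of M22 and of YPS163 with DBY8268 and of hap1D with YPS163 MATa, were in triplicate. YPS163 MATa, the control of both mutants, carries neither deletion. The titles of the msn2D arrays omit the mating type that their genotype labels give.

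All values are ratios on a log scale read as log2, with the ethanol-treated cells, or the strain named before "over", as the likely numerator. Neither the base nor the direction is stated in the sources used here. An array held values for 4981 to 6093 genes. The second array of each triplicate had its dyes exchanged. HAP1 had no value on the hap1D ethanol arrays and MSN2 none on the msn2D ethanol arrays. On hap1D log-phase arrays 2 and 3, HAP1 stood at -3.90 and -3.04, with no value on array 1. These log-phase columns were turned so that HAP1 is low, so its sign there was set and not found. Array 3 of YPS163 MATa in ethanol was left out because its values lie 1 position out of place in the table. Its correlation across genes with the mean of the other 2 arrays was 0.164 as deposited and 0.747 after moving it by that position, so YPS163 MATa has 2 arrays below. Of the 137 ribosomal protein genes, 70 had a value on all 35 arrays used. RPL3, RPL20B, RPL33B, RPS7A, RPS10A, RPS28A and RPS30B had values on all 11 arrays of YPS163 MATa, hap1D and msn2D, but on only 3 to 5 of the other 24.

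At 30 min the ribosomal protein genes were lower in all 6 strains, and 133 of the 137 were below 0 on every 30 min ethanol array that gave them a value. The other 4 were RPL41A, RPL41B, RPL22B and RPS9A. The median over the genes was -1.80 in DBY8268, which is 3.48-fold lower, -1.49 in M22, -1.23 in YPS163, -1.19 in YPS163 MATa, -1.15 in hap1D and -1.23 in msn2D. The medians of all genes tested lay between -0.035 and 0.030. A gene was called where limma's adjusted p (Benjamini-Hochberg, over all genes tested) was under 0.05. In DBY8268, 127 of 127 ribosomal protein genes tested fell by this rule, beside 31.0% of all genes. In M22, 126 of 129 fell, beside 29.7% of all genes. In YPS163, 122 of 128 fell, beside 30.0% of all genes, and in YPS163 MATa 119 of 131, beside 27.6%. In hap1D, 133 of 137 fell, beside 27.7% of all genes, and in msn2D 131 of 135, beside 22.4%. No ribosomal protein gene was called higher in any of the 6 strains. Without array 1 of YPS163 MATa, 63 were called there, in a fit that takes the spread of its lone array from the other groups. Scaling each array to the same spread over all genes lowered the counts, to 60 of 128 in YPS163 and 43 of 131 in YPS163 MATa. That scaling enlarges the hap1D log-phase arrays, whose median absolute deviation was 0.13, 0.15 and 0.18, against 0.41 to 0.68 on these ethanol arrays. The hap1D log-phase arrays enter each gene's spread in the fit, so fewer calls need not mean smaller falls. The share of all genes called in the scaled fit, or without array 1, is not given here. In whole-culture RNA, fewer growing cells and less transcript per cell cannot be told apart.

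**Figure D1:**
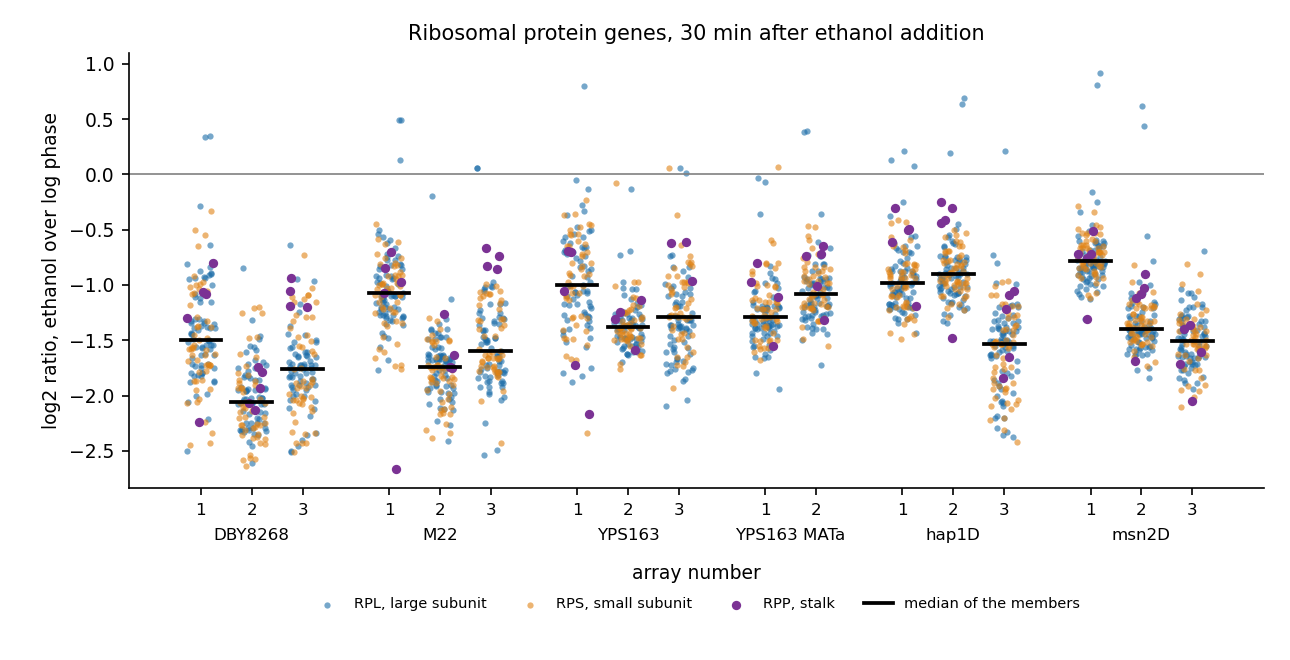
Log2 ratio of ethanol over log phase at 30 min (vertical axis) for each ribosomal protein gene with a value, on the 17 ethanol arrays used (horizontal axis), coloured by subunit, with the median as a bar. All 17 medians lie below 0, between -2.06 and -0.79, and the arrays of one strain differ from each other by up to 0.73.

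The genes' level shifted from array to array. The medians on arrays 1, 2 and 3 were -1.50, -2.06 and -1.76 in DBY8268, -1.07, -1.74 and -1.60 in M22, and -1.0, -1.38 and -1.29 in YPS163. They were -1.29 and -1.08 on the 2 arrays of YPS163 MATa, -0.98, -0.91 and -1.53 in hap1D, and -0.79, -1.40 and -1.51 in msn2D. Thus the lowest and the highest msn2D array were 0.73 apart, while the medians of all genes on those 3 arrays were 0.12 apart. Within msn2D the typical gene of the group had an SD of 0.39 between arrays, and 0.11 once each array's own median over the ribosomal protein genes was subtracted. These SDs were 0.32 and 0.16 in DBY8268, 0.43 and 0.23 in M22, and 0.35 and 0.18 in hap1D. They were closer to each other in YPS163, at 0.31 and 0.22, and in YPS163 MATa, at 0.16 and 0.12. The part of the replicate spread shared by the whole group thus differed between strains.

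The large and small subunits fell to nearly the same level. In DBY8268, 71 of 71 RPL genes (median -1.77) and 51 of 51 RPS genes (median -1.87) fell. In YPS163, 68 of 73 RPL genes (median -1.26) and 50 of 51 RPS genes (median -1.15) fell. Over the 17 arrays the median of the RPL genes minus that of the RPS genes ran from -0.16 to 0.14, with a median of -0.02, and it was below 0 on 9 arrays and above 0 on 8. The order differed by strain. It was 0.10 to 0.14 on the 3 DBY8268 arrays, where the RPS genes were the lower, -0.065 to 0.11 in M22, and -0.16 to 0.03 on the 11 arrays of YPS163, YPS163 MATa and both mutants. The DBY8268 and YPS163-background arrays did not overlap in this difference, which is small beside the spread among the genes of an array (SD 0.24 to 0.49).

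RPS3 encodes a small-subunit protein at the entry of the messenger channel. It read -1.57, -2.15 and -1.89 in DBY8268 and -0.91, -1.33 and -2.43 in M22, where the ranges overlap, and it fell in all 6 strains. RPL5, whose protein carries the 5S rRNA into the large subunit, read -1.58, -1.86 and -1.70 in DBY8268, -0.91, -1.13 and -0.97 in M22 and -0.38, -0.49 and -0.80 in hap1D. RPL5 was among the 4 highest genes of hap1D (-0.56, SE 0.19, limma adjusted p = 0.020). RPL10, which joins the large subunit last and is needed for subunit joining, was -1.53 ± 0.33 (SD, n = 3) in DBY8268 and -0.56 ± 0.38 (SD, n = 3) in hap1D, and it fell in all 6 strains. RPL3, at the peptidyl transferase centre, was not tested in DBY8268, M22 or YPS163, where it had no value in ethanol at 30 min. It was -1.33 and -1.10 in YPS163 MATa, -1.25, -0.94 and -1.56 in hap1D, and -1.04, -1.58 and -1.66 in msn2D, and fell in all 3.

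The stalk genes stood slightly above the rest at 30 min. Their median exceeded that of the RPL genes on 15 of 17 arrays, by a median of 0.29. RPP0, which anchors the stalk to the ribosome, was not steadily above the RPL genes. In DBY8268, M22 and YPS163, RPP0 was below the RPL median on arrays 1 and 2 and above it on array 3. The RPL medians of these strains were -1.44, -1.10 and -1.005 on array 1, and -1.75, -1.61 and -1.37 on array 3. RPP0 read -2.24, -2.07 and -1.20 in DBY8268, -2.66, -1.74 and -0.74 in M22 and -2.17, -1.59 and -0.61 in YPS163. Array 1 was thus the lowest and array 3 the highest in each of these strains, in contrast to the group median. In msn2D, RPP0 was the lowest gene of the group (-1.31, -1.69 and -2.05, limma adjusted p = 0.00011). Of the acidic proteins RPP1A, RPP1B, RPP2A and RPP2B, which extend from RPP0, RPP2B was -0.80, -1.74 and -0.94 in DBY8268 and -0.50, -0.30 and -1.09 in hap1D. RPP1A (-0.92) and RPP2A (-0.77) did not pass in YPS163 MATa, nor RPP2A (-0.60) in hap1D. RPP2A was not tested in M22 or YPS163, where it had a value on 1 array each.

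A few genes departed from the group. RPL41A and RPL41B, which encode the smallest ribosomal protein, a short helix between the subunits, did not pass in any of the 5 strains where they were tested. RPL41A read 0.49, -1.35 and 0.06 in M22, 0.80, -0.69 and 0.06 in YPS163, 0.21, 0.64 and -1.55 in hap1D and 0.92, 0.62 and -1.46 in msn2D. In each strain the arrays lay on both sides of 0, so these values show neither a fall nor its absence. RPL41B gave nearly the same values, at 0.81, 0.44 and -1.52 in msn2D. Probes for such alike copies may bind both transcripts, which was not tested. RPL39, a short protein of the peptide exit tunnel, fell in DBY8268 and M22 but did not pass in YPS163 (-0.76) or msn2D (-0.75).

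In DBY8268 the lowest genes were RPL7A (-2.49, SE 0.16, limma adjusted p = 8.95e-11), RPS0A (-2.48), RPS0B (-2.44) and RPS17B (-2.31), and the highest were RPS12 (-0.84), RPS26A (-0.87), RPL22B (-0.88) and RPS30A (-1.02). In M22 the lowest were RPS19A (-1.85), RPS0A (-1.85), RPS22B (-1.83) and RPL42A (-1.82), and RPP1B (-0.99) was among the highest. RPL38 (-1.76), RPS7B (-1.70), RPL8B (-1.69) and RPS19A (-1.62) were lowest in YPS163, and RPL36A (-1.65), RPL31B (-1.62), RPL36B (-1.61) and RPS7B (-1.53) in YPS163 MATa. The lowest of hap1D were RPL22A (-1.58), RPS24B (-1.54), RPS10A (-1.53) and RPS8B (-1.52). In msn2D, RPL8B (-1.66), RPS0A (-1.63) and RPS0B (-1.60) followed RPP0, and RPS20 (-0.72) was among the highest. RPS0A and RPS0B, both copies of a gene needed to mature the small subunit, were thus among the 4 lowest in DBY8268 and in msn2D.

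Of the 137 genes, 118 form 59 pairs of copies A and B. The whole table holds only 2 more pairs of genes so named, and no test across pairs was made. Copies moved alike: over the 17 arrays the median size of the mean difference between A and B was 0.058, and it was under 0.2 in 55 of 59 pairs. A was lower in 23 pairs and higher in 36. Across the 59 pairs the mean responses of A and B correlated with r = 0.70, with r = 0.86 without RPL22, and with r = 0.71 without RPL22 and RPL41. Both copies were measured on the same arrays, and near-identical copies can share probe signal. In only 2 pairs did the difference have the same sign on every array.

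RPL22 was the pair furthest apart, with A minus B at -1.13 ± 0.48 (SD, 17 arrays) and copy A lower on 17 of 17 arrays. RPL22 is a large-subunit protein that yeast can live without. RPL22A followed the group, at -1.56, -2.25 and -2.04 in DBY8268, -1.10, -1.63 and -1.75 in M22 and -1.22, -1.33 and -2.20 in hap1D. RPL22B read -0.29, -0.85 and -1.50 in DBY8268, 0.13, -0.20 and -1.02 in M22, -0.05, -0.13 and -1.06 in YPS163, and 0.08, 0.19 and 0.21 in hap1D. RPL22B fell in DBY8268 (limma adjusted p = 0.0013) and did not pass in the other 5 strains, where its mean ran from -0.50 in msn2D to 0.16 in hap1D. The order depended on time: on the single arrays at 15 min, A minus B was 0.51 in DBY8268, 0.76 in M22 and 1.47 in YPS163, with copy B the lower, and at 60 min it was -1.49, -0.63 and -0.18. At 30 min the difference between copies was -1.07 ± 0.46 in DBY8268 and -1.74 ± 0.59 in hap1D (SD, n = 3 each).

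RPS26, whose protein sits where the message leaves the small subunit, was the second pair with 1 sign, at 0.31 ± 0.24 (SD, 17 arrays), with copy A higher on 17 of 17. RPS26A read -0.33, -1.20 and -1.09 in DBY8268 where RPS26B read -1.05, -1.65 and -1.15. RPS9 had the largest spread. RPS9 is a small-subunit protein with a role in decoding accuracy. Its mean difference was 0.36 ± 0.74 (SD, 17 arrays), with copy A lower on 8 arrays and higher on 8. By strain the difference was 0.98 ± 0.71 in YPS163, 0.77 ± 0.91 in DBY8268, -0.20 ± 0.18 in M22 and -0.15 ± 0.23 in msn2D (SD, n = 3 each). RPS16A was above RPS16B on 15 of 17 arrays (0.24 ± 0.29), RPS19A below RPS19B on 16 (-0.20 ± 0.17) and RPL42A below RPL42B on 15 (-0.19 ± 0.19).

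**Figure D2:**
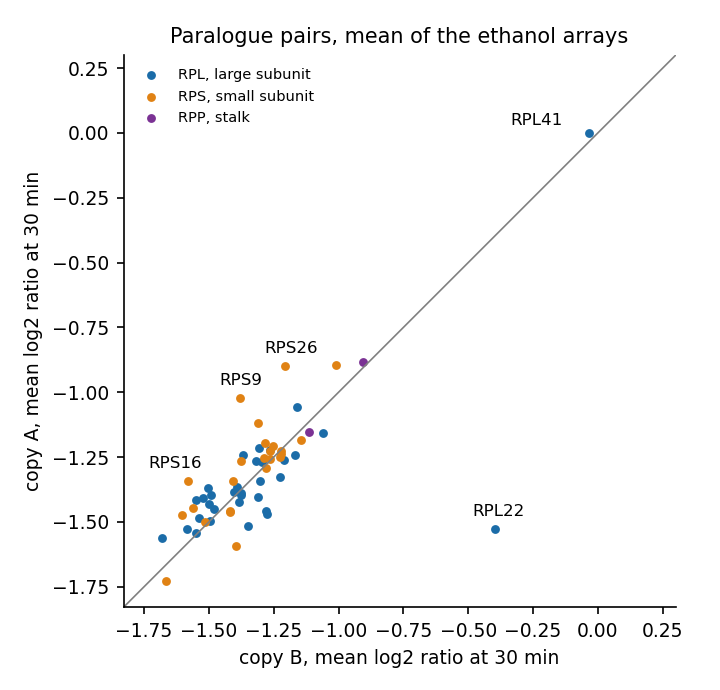
Mean log2 ratio at 30 min over the ethanol arrays with both values, copy A (vertical) against copy B (horizontal), 1 point per paralogue pair, with the line of equality. Most of the 59 pairs lie on the line, and RPL22, with A at -1.53 and B at -0.39, lies far below it.

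Between strains, the ribosomal protein genes fell furthest in DBY8268. Of 125 genes with at least 2 arrays in each of DBY8268, M22 and YPS163, DBY8268 had the lowest mean for 101, M22 for 22 and YPS163 for 2. The median difference between strains was in the same direction at each array number, hence in both dye orientations. YPS163 minus DBY8268 was 0.49, 0.70 and 0.44 on arrays 1, 2 and 3, M22 minus DBY8268 was 0.42, 0.31 and 0.24, and YPS163 minus M22 was 0.13, 0.41 and 0.21. These medians are description and were not tested as a group.

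Gene by gene, few of these differences passed. For YPS163 minus DBY8268, 12 of 125 ribosomal protein genes were called higher, that is less repressed in YPS163, beside 10.4% of all genes, a share like the background. For M22 minus DBY8268, 3 of 126 were called higher, beside 9.35% of all genes. For YPS163 minus M22 it was 1 of 128, beside 2.06% of all genes. None was called lower. Same-numbered arrays of these 3 strains deviated together. With array number as a block over all 30 min ethanol arrays, 24 of 125 genes were called higher for YPS163 minus DBY8268, beside 9.74% of all genes, 5 of 126 for M22 minus DBY8268, beside 8.73%, and 0 for YPS163 minus M22. A fit of the 3 strains alone, chosen after seeing the data, called 9, 1 and 0 without the block. With the block it called 52 of 125 for YPS163 minus DBY8268, beside 11.3% of all genes, 19 of 126 for M22 minus DBY8268, beside 8.89%, and 0 of 127 for YPS163 minus M22, beside 1.73%. With arrays scaled to the same spread, 0 were called in each of these comparisons. That scaling enlarges the hap1D log-phase arrays, which enter each gene's spread in the fit. These 0 calls thus cannot tell a smaller difference from a larger spread estimate. Without DBY8268 array 2, YPS163 minus DBY8268 gave 4 calls and M22 minus DBY8268 gave 0. YPS163 minus DBY8268 gave 6 without DBY8268 array 3 and 4 without YPS163 array 3, and M22 minus DBY8268 gave 1 without M22 array 1 or DBY8268 array 3.

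The 12 genes were 8 of 50 RPS genes and 4 of 71 RPL genes tested. RPL7A, a large-subunit protein gene, read -2.50, -2.46 and -2.51 in DBY8268, -1.77, -1.67 and -1.57 in M22 and -1.29, -1.26 and -1.17 in YPS163. The 3 strains did not overlap, and RPL7A differed by 1.25 between YPS163 and DBY8268 (SE 0.23, limma adjusted p = 0.00072) and by 0.82 between M22 and DBY8268 (adjusted p = 0.021). In the YPS163 MATa background RPL7A read -1.10 and -1.32, close to YPS163. RPS0A was -2.43, -2.57 and -2.43 in DBY8268 and -1.48, -1.50 and -1.44 in YPS163, and differed by 1.00 (limma adjusted p = 0.020). RPS0B (1.07) and RPS11B (1.13) also differed. RPS11B, a small-subunit protein gene, was -2.45, -2.14 and -2.08 in DBY8268 and -1.41, -1.24 and -0.64 in YPS163, again without overlap.

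RPS9A and RPS9B both differed between YPS163 and DBY8268, by 1.16 and 0.95. RPS9B was -2.07, -2.36 and -2.24 in DBY8268 and -1.02, -1.36 and -1.43 in YPS163, without overlap. RPS9A was far more variable, at -0.65, -1.21 and -2.51 in DBY8268, -1.47, -1.85 and -1.79 in M22 and -0.86, -0.08 and 0.06 in YPS163, so that DBY8268 and YPS163 overlap. Its call against DBY8268 (limma adjusted p = 0.048) was lost without DBY8268 array 3 (0.64, adjusted p = 0.25), without DBY8268 array 2 or YPS163 array 2 or 3 (0.99 to 1.29), and with array number as a block in the 3 strains (adjusted p = 0.12) or over all ethanol arrays (0.072). RPS9A was also the only gene of the group called between YPS163 and M22, at 1.41 (limma adjusted p = 0.035), and there the arrays did not overlap. That call was lost with array number as a block in the 3 strains (adjusted p = 0.14) or over all ethanol arrays (0.067), and without any of M22 arrays 1, 2 or 3 or YPS163 arrays 2 or 3. RPL15A, a large-subunit protein gene, was higher in M22 by 0.76 and in YPS163 by 0.77 than in DBY8268, where it read -1.87, -2.32 and -2.40.

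**Figure D3:**
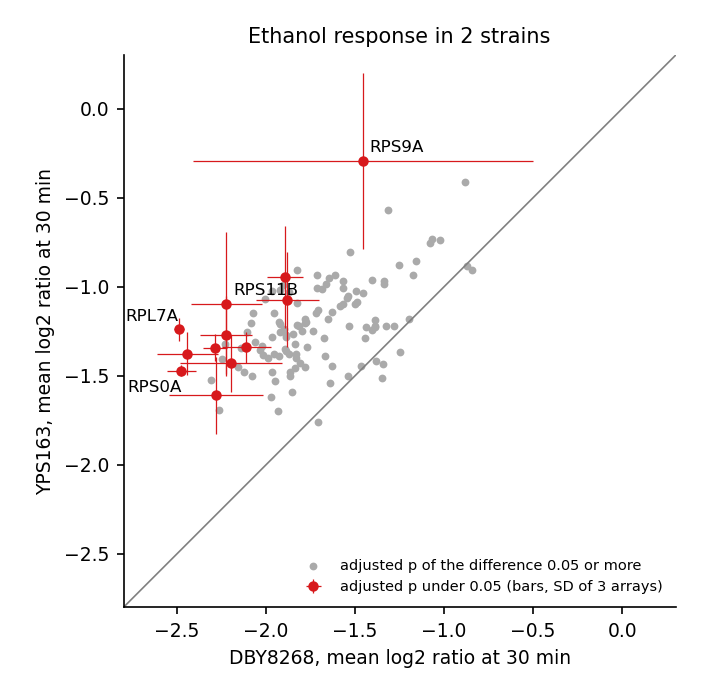
Mean log2 ratio at 30 min in YPS163 (vertical) against DBY8268 (horizontal) for the 125 ribosomal protein genes tested in both, with the line of equality. Nearly all points lie above the line, and the 12 genes whose difference passed limma's adjusted p of 0.05 are drawn with SD bars (3 arrays each).

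Neither the mating type nor the deletions were accompanied by a called change. For YPS163 MATa minus YPS163, 0 of 122 ribosomal protein genes passed limma's adjusted p, and 0 had an unadjusted p under 0.05, beside 0.740% of all genes called in either direction. For hap1D minus YPS163 MATa it was 0 of 131, with 1 at an unadjusted p under 0.05, beside 0.0926% of all genes. For msn2D minus YPS163 MATa it was 0 of 129, with 0 at an unadjusted p under 0.05, while 8.21% of all genes were called. The median differences were 0.064, 0.025 and -0.068. With 2 arrays in YPS163 MATa, a typical gene's difference had an SE of 0.36, and a call needs a difference well above its SE. For hap1D minus YPS163 MATa, single genes differed by -0.78 to 0.63 and none was called. The lack of calls thus does not show that single genes were unchanged. Scaling each array to the same spread moved the msn2D median to -0.39, and moved those of the other 2 to -0.014 and -0.050, across 0.

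On the arrays of the time course the genes were lower by 15 min, and their spread was smaller at 60 than at 15 min. There was 1 array per strain and time, so no test was made, and genes at least 2-fold lower were counted. In DBY8268 the median was -0.77, -1.50, -1.26 and -1.47 at 15, 30, 45 and 60 min. There 27 of 128 genes were at least 2-fold lower at 15 min (11.1% of all genes), 107 of 130 at 30 min (17.6%), 103 of 126 at 45 min (16.6%) and 127 of 129 at 60 min (16.4%). In M22 the median was -0.57, -1.07, -1.09 and -1.10. The counts were 16 of 126 (12.3% of all genes), 75 of 130 (14.8%), 85 of 128 (15.0%) and 84 of 124 (13.7%). In YPS163 the median was -0.57, -1.0, -1.42 and -1.42, with counts of 27 of 124 (15.9% of all genes), 64 of 125 (17.5%), 97 of 110 (18.4%) and 116 of 124 (16.1%). At 60 min the YPS163 array was thus as low as that of DBY8268, and that of M22 the highest. Replicate medians at 30 min were up to 0.56 apart in DBY8268, 0.67 in M22 and 0.38 in YPS163. The order of the strains at 60 min therefore cannot be told apart from shifts between arrays. On the single arrays at 15 min the shares were close to those of all genes in M22 and above them in DBY8268 and YPS163. The 2-fold limit falls among the values at 15 and 30 min. At 1.5-fold, 88 of 128 genes in DBY8268, 61 of 126 in M22 and 61 of 124 in YPS163 were lower at 15 min. The share of all genes at 1.5-fold is not given here, so these counts cannot be read as particular to the group.

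The spread among the genes was smaller at 60 than at 15 min in each strain. At 15, 30, 45 and 60 min their SD was 0.43, 0.49, 0.40 and 0.22 in DBY8268, 0.38, 0.38, 0.34 and 0.25 in M22, and 0.55, 0.46, 0.36 and 0.30 in YPS163. On these arrays of DBY8268 and M22 it had not narrowed by 30 min, when the medians had fallen. Arrays 2 and 3 at 30 min, however, gave SDs of 0.32 and 0.40 in DBY8268, 0.29 and 0.40 in M22, and 0.24 and 0.39 in YPS163. Replicates at 30 min thus differed widely in this SD, and the other times had no replicate. At 15 and 60 min the SD over all genes was 0.99 and 1.11 in DBY8268, 1.15 and 1.09 in M22, and 1.15 and 1.21 in YPS163. At 15 min the order of the genes was similar in the 3 strains, with r between 0.76 and 0.81 across 120 to 124 genes. At 60 min r was 0.73 between DBY8268 and M22, 0.36 between DBY8268 and YPS163 and 0.30 between M22 and YPS163. The genes are not independent replicates, and each is read by the same probe in every strain. From 15 to 60 min, 122 of 127 genes went lower in DBY8268, 109 of 121 in M22 and 102 of 112 in YPS163.

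RPS12, which encodes a protein of the small subunit's beak, was late in all 3 strains. It read 0.29, -0.55, -1.01 and -1.63 at 15, 30, 45 and 60 min in DBY8268, 0.13, -0.58, -0.94 and -1.32 in M22 and 0.68, -0.36, -1.10 and -1.95 in YPS163. It went lower at each successive time. The stalk gene RPP2B went from -0.25 to -1.76 in DBY8268 and from -0.23 to -1.68 in M22 between 15 and 60 min. The other large changes from 15 to 60 min were of RPS8B (-2.23) in DBY8268, RPS20 (-1.37) in M22, and RPL24A (-1.83) and RPS14B (-1.75) in YPS163. The stalk genes, which were above the RPL genes at 15 min in DBY8268 and M22, had become the lower by 60 min (median -1.76 against -1.43 in DBY8268, and -1.63 against -1.07 in M22).

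RPL22B took the opposite course. It was -1.33, -0.29, 0.67 and -0.17 in DBY8268, -1.73, 0.13, 0.32 and -0.34 in M22 and -2.27, -0.05, -0.75 and -1.23 in YPS163. It was thus the lowest of all the ribosomal protein genes at 15 min in M22 and YPS163, and the highest at 60 min in DBY8268 and M22. It had the largest change upward from 15 to 60 min in each strain, at 1.16, 1.39 and 1.04. RPL7A was low early, at -1.92 in DBY8268, -1.54 in M22 and -1.73 in YPS163 at 15 min, and stood at -1.67, -1.12 and -1.29 at 60 min. RPS9A (by 0.74) and RPL7B (by 0.58) in M22, and RPS22B (by 0.51) and RPL7A (by 0.44) in YPS163, also went upward, as did RPL7A and RPS28B (by 0.25 each) in DBY8268.

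**Figure D4:**
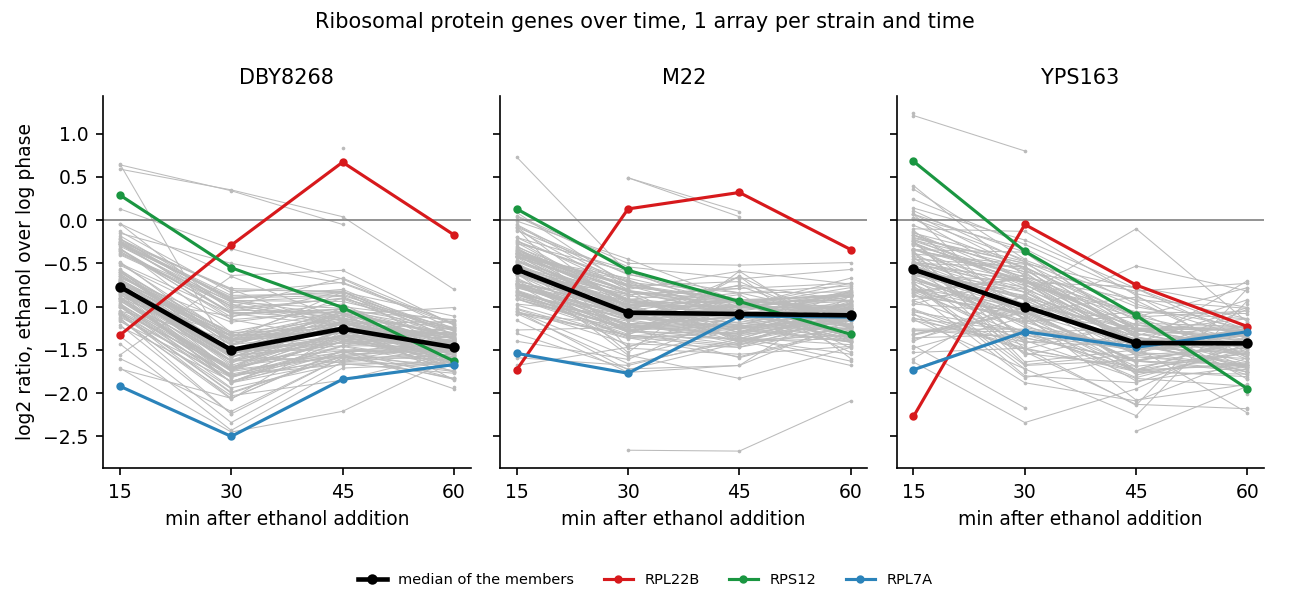
Log2 ratio of ethanol over log phase (vertical) against min after ethanol addition (horizontal) for every ribosomal protein gene (grey), their median (black) and 3 named genes, 1 array per strain and time. The grey lines draw together by 60 min, RPS12 starts above 0 in all 3 strains, and RPL22B rises from 15 to 30 min and is lower again at 60 than at 45 min in all 3.

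In log phase without ethanol, the difference between the wild isolates and DBY8268 was uneven between arrays for YPS163 and even for M22. For M22 over DBY8268 the median was 0.25, 0.26 and 0.31 on the 3 arrays, and 96 of 114 genes with 3 values were above 0 on all of them. None was called higher, and 2 of 129 were called lower, beside 17.7% of all genes. These were RPL40A, a fusion of ubiquitin and a large-subunit protein, at -1.45, -0.47 and -0.33 (mean -0.75, limma adjusted p = 0.024), and RPL13A at -1.27, -0.32 and -0.30 (mean -0.63, adjusted p = 0.029). In both, array 1 was far below the others, and without it neither was called (-0.40 and -0.31). Fitted on these 3 arrays alone, without the spread of the other groups, 42 were called higher, beside 17.9% of all genes, and 2 lower, beside 20.4%.

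For YPS163 over DBY8268 the median was 0.48, -0.06 and 1.04 on arrays 1, 2 and 3, and 33 of 120 genes had 1 sign on all 3. By the fit over all groups 10 of 129 were called higher, beside 8.62% of all genes, a share like the background. The largest were RPL4B (0.92, 0.01 and 1.27, mean 0.73, limma adjusted p = 0.040), RPS18A (0.67, 0.14 and 1.37, mean 0.73), RPS8A (0.67), RPL8A (0.63) and RPL20A (0.62). Rpl4 lines the peptide exit tunnel. For each of these, array 2, with the dyes exchanged, was the lowest and array 3 the highest. Without array 2, 71 of 121 were called higher, and without array 1 or array 3, 0 of 122 and 0 of 126. The share of all genes called in these fits is not given here, so the 71 cannot be read as particular to the group. For hap1D over YPS163 MATa the median was 0.31, 0.33 and -0.45, and 0 of 136 were called, with 0 at an unadjusted p under 0.05, beside 2.94% of all genes called in either direction. Only 3 of 120 genes had 1 sign on all 3 of these arrays. The group as a whole was on opposite sides of 0 on arrays 2 and 3, on which HAP1 itself was low.

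**Figure D5:**
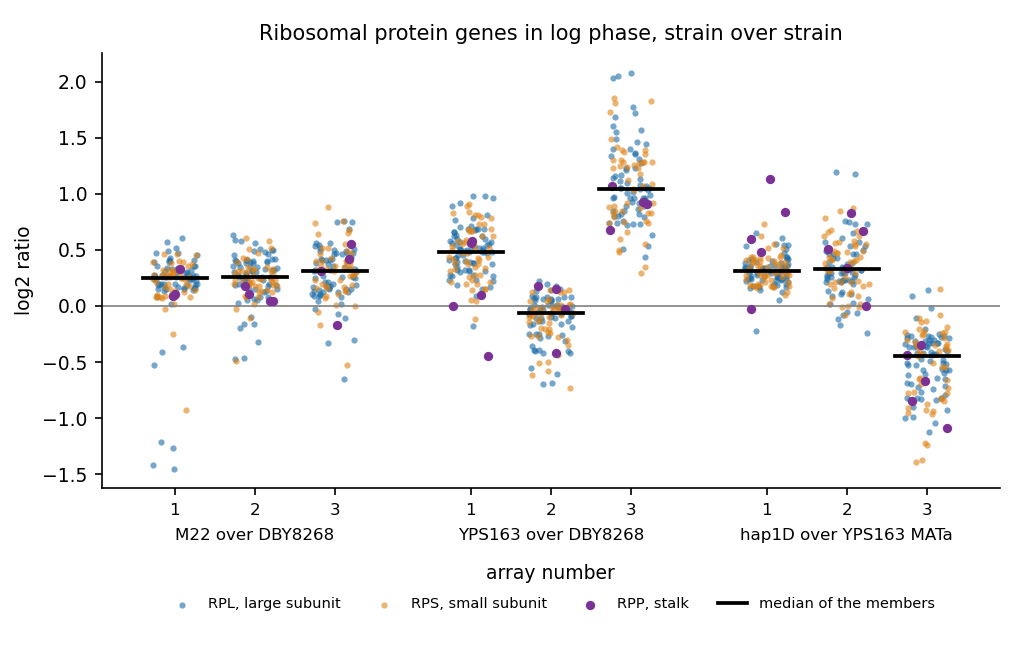
Log2 ratio between strains in log phase (vertical) for each ribosomal protein gene on the 9 log-phase arrays (horizontal), coloured by subunit, with the median as a bar. The medians differ between arrays of YPS163 over DBY8268, from -0.06 to 1.04, and of hap1D over YPS163 MATa, and lie close together for M22 over DBY8268, from 0.25 to 0.31.

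Other genes of the translation machinery were counted by the same tests, from lists written with earlier results of these data known. Of the list of 27 ribosome assembly factors, 25 of 25 fell in DBY8268, M22, YPS163 and YPS163 MATa, beside 27.6% to 31.0% of all genes. In hap1D and msn2D, 26 of the 27 factors fell, beside 27.7% and 22.4% of all genes. Their medians, -2.51 in DBY8268, -2.61 in M22, -2.39 in YPS163 and -1.77 in msn2D, were lower than those of the ribosomal protein genes. For M22 minus DBY8268 and YPS163 minus DBY8268, their medians were -0.080 and 0.050, where those of the ribosomal protein genes were 0.31 and 0.55. In msn2D minus YPS163 MATa, 7 of 25 assembly factors were called higher, beside 4.13% of all genes. Of the 8 dedicated chaperones of ribosomal proteins, 7 fell in DBY8268, 6 in M22 and 7 in YPS163. Of all genes, 31.0%, 29.7% and 30.0% fell in these strains. SYO1, which escorts Rpl5 and Rpl11 into the nucleus, was -3.05 ± 0.21 in DBY8268 and -1.50 ± 0.24 in msn2D (SD, n = 3 each). SYO1 was -2.75 (n = 2) in YPS163 MATa, and its difference between msn2D and this control did not pass (limma adjusted p = 0.10). RRB1, the chaperone of Rpl3, was -2.56 ± 0.10 in DBY8268 (SD, n = 3).

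Of 20 elongation and ribosome-bound factors, 16 of 19 tested fell in DBY8268, beside 31.0% of all genes. In M22 15 of 19 fell, beside 29.7%, in YPS163 14 of 19, beside 30.0%, and in YPS163 MATa 13 of 19, beside 27.6%. In hap1D and in msn2D 16 of 20 fell, beside 27.7% and 22.4%. YEF3, the fungal elongation factor that ribosomes need at each cycle, was -2.65 ± 0.25 in DBY8268, -2.04 ± 0.44 in M22 and -1.68 ± 0.43 in YPS163 (SD, n = 3 each). For YPS163 minus DBY8268, 6 of 19 were called higher, beside 10.4% of all genes, and the median of the 19 was 0.66. BTT1, a subunit of the nascent-chain-associated complex, was called higher in 5 of the 6 strains, at 1.85 ± 0.50 (SD, n = 3) in M22. Genes of the mitochondrial ribosome, which makes only proteins encoded in the mitochondrion, did not follow the cytosolic genes. Of 67 tested, 1 fell in DBY8268 (median 0.17) and 4 in M22 (median 0.00), beside 31.0% and 29.7% of all genes. In DBY8268, 19 rose, a share like the 28.6% of all genes that rose, and in M22 8 rose, beside 32.3% of all genes. In log phase 40 of 66 were called higher for M22 over DBY8268, beside 12.3% of all genes.

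Among 12 regulators of ribosomal protein gene transcription, 8 fell and 1 rose in DBY8268, and 7 of 12 fell and 2 rose in M22. In YPS163, 7 of 11 fell and 1 rose. Of all genes, 31.0% fell and 28.6% rose in DBY8268, 29.7% and 32.3% in M22, and 30.0% and 30.4% in YPS163. RAP1 fell in all 6 strains, from -2.82 ± 0.79 in YPS163 to -0.89 ± 0.33 in msn2D (SD, n = 3 each). RAP1 was -2.365 (n = 2) in YPS163 MATa, and msn2D was called higher than this control (limma adjusted p = 0.0089). FHL1 fell in all 6 too, at -0.59 ± 0.14 (SD, n = 3) in DBY8268. IFH1 fell in DBY8268 (-1.77 ± 0.08), M22 (-1.54 ± 0.06) and YPS163 (-1.58 ± 0.17), rose in hap1D (0.45 ± 0.69, limma adjusted p = 0.018) and did not pass in msn2D (0.10 ± 0.04; SD, n = 3 each). IFH1 had no value in YPS163 MATa, so its difference between the mutants and their control was not tested. For IFH1 the deletions thus cannot be told apart from other differences between the mutants' arrays and those of DBY8268, M22 and YPS163. STB3, a repressor of ribosome synthesis genes, rose in 5 strains, at 0.79 ± 0.43 (SD, n = 3) in DBY8268, and did not pass in YPS163 MATa (0.47). Other genes of the list differed from STB3. TOD6 fell in all 6 strains, at -3.14 ± 0.20 in DBY8268 and -1.23 ± 0.36 in msn2D (SD, n = 3 each). In YPS163 MATa, the control of msn2D, TOD6 was -3.865 (n = 2), and msn2D was called higher (limma adjusted p = 0.00069). DOT6 rose in M22 (0.67 ± 0.43) and hap1D (0.49 ± 0.23; SD, n = 3 each) and did not pass in the other strains, with -0.35 in DBY8268.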

How the data were processed

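The deposited table holds the authors' processed values, 1 column per 2-colour array, on a scale read here as log2 ratios. The sources used here do not give the base, the direction or any normalisation. The direction was read from missing values: of 39 genes with a mean ethanol ratio above 3.5, 16.7% of log-phase values were missing, and of 133 genes below -2, 2.76%. The hap1D log-phase columns were turned so that HAP1 is low. All columns were mapped to samples.

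Open reading frames were named through RefSeq (5830 of 6295 matched). limma 3.58.1 in R 4.3.3 fitted 1 mean per group to 26 arrays of the 9 replicated groups, with empirical Bayes moderation and Benjamini-Hochberg adjustment over all genes with at least 2 values per group compared. The fit was tested on simulated data. Replicates are biological triplicates, per the series' design text. Pairing was checked by correlating deviations from group means. Among DBY8268, M22 and YPS163 in ethanol all 9 same-numbered correlations were over 0.1 (0.24 to 0.60), so a fit with array number as a block is given beside those comparisons. Over all 6 strains only 15 of 40 were.

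Members and lists were chosen with earlier results of these data known. Genes named were the 4 lowest and 4 highest of each strain, up to 5 called genes per direction of each other comparison, the pairs and time-course genes with the largest differences, and RPP0, RPP1A, RPP1B, RPP2A, RPP2B, RPL3, RPL5, RPL10 and RPS3; 1 further gene of that list is not reported here. RPL39 and the other genes of the lists were singled out after their values were seen. A planned limma test of paralogue pairs was not used, because 59 of the 61 pairs it would adjust over are ribosomal.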

Additional observations from a re-analysis of the deposited data

Results flagged for a closer look

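The ethanol response of these ribosomal protein genes differed between strains by limma's test of the difference itself, and each was less repressed in the strain named first. Between M22 and DBY8268 the differences were 0.82 for RPL7A, 0.76 for RPL15A and 0.72 for RPS9B. Between YPS163 and DBY8268 they were 1.25 for RPL7A, 1.16 for RPS9A, 1.13 for RPS11B, 1.07 for RPS0B, 1.00 for RPS0A, 0.95 for RPS9B and RPS8A, 0.94 for RPL7B, 0.81 for RPS4A, 0.77 for RPS11A and RPL15A, and 0.67 for RPL15B. Between YPS163 and M22 it was 1.41 for RPS9A. These were 3 of 126, 12 of 125 and 1 of 128 genes tested, beside 9.35%, 10.4% and 2.06% of all genes called higher. None of these shares exceeded that of all genes. Without DBY8268 array 2, or without YPS163 array 3, 4 calls were left for YPS163 minus DBY8268. For M22 minus DBY8268, 0 were left without DBY8268 array 2. Both RPS9A calls were lost with array number as a block in the 3 strains (limma adjusted p = 0.12 and 0.14) and without any of several single arrays. With arrays scaled to the same spread no gene of the group was called in these comparisons. That scaling enlarges the hap1D log-phase arrays, which enter each gene's spread in the fit, so the lost calls need not be smaller differences.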

How the results depend on the processing

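With 2 or 3 arrays per group, small changes in single genes were not detectable, and array signal over background was not used here. Restricting the fit to genes with a value on every array tested fewer genes and called 77 in DBY8268, 76 in M22, 75 in YPS163, 74 in YPS163 MATa, 76 in hap1D and 77 in msn2D, of 77 each. Scaling arrays to the same spread called 81 in M22, 60 in YPS163, 43 in YPS163 MATa, and 0 in each comparison of DBY8268, M22 and YPS163. That scaling enlarges the hap1D log-phase arrays, which enter each gene's spread in the fit, so a lost call need not be a smaller change. The share of all genes called in the scaled fit is not given here. The scaled fit called 5 in log phase for M22 (2 higher, 3 lower) and 6 for hap1D (5 higher, 1 lower). After scaling, 41 genes were counted as lower at 15 min in DBY8268, where genes were counted by fold and no test was made. Centring arrays on their median called 7 for YPS163 minus DBY8268 and 6 in log phase for YPS163. Fitting only the arrays compared gave 0 for M22 minus DBY8268, 5 for YPS163 minus DBY8268, 0 for YPS163 minus M22, 44 in log phase for M22 and 0 for YPS163. With replicate number as a block over all 30 min ethanol arrays, the calls were 5 for M22 minus DBY8268, 24 for YPS163 minus DBY8268 and 0 for YPS163 minus M22, and in log phase 1 for M22 and 1 for YPS163. In a fit of the 3 strains alone, chosen after seeing the data, they were 19, 52 and 0 with the block and, without it, 1 for M22 minus DBY8268 and 0 for YPS163 minus M22. A limit of 1.5-fold gave 88 genes at 15 min in DBY8268, 61 at 15 min and 122 at 30 min in M22, and 61 and 103 in YPS163. The share of all genes at that limit is not given here. The causes of these moves were not tested. Leaving out 1 array at a time gave 120 to 127 calls in DBY8268, 122 to 125 in M22, 110 to 117 in YPS163, 63 to 92 in YPS163 MATa, 107 to 130 in hap1D and 115 to 126 in msn2D. For the differences it gave 0 to 3 for M22 minus DBY8268, 4 to 10 for YPS163 minus DBY8268, 0 to 1 for YPS163 minus M22 and 0 for the other 3. In log phase it gave 0 to 2 for M22, 0 to 71 for YPS163 and 0 for hap1D. Of the values of single genes, 556 kept direction and side of the threshold, 96 lost and 12 gained a call, and 14 changed sign, none of them called. Leaving out 1 array at a time, RPL41A ran from -0.65 to 0.28 in M22, from -0.32 to 0.43 in YPS163, from -0.03 to 0.39 in YPS163 MATa, from -0.67 to 0.43 in hap1D and from -0.42 to 0.77 in msn2D, where it was -0.27 without replicate 2. RPL41B ran from -0.07 to 0.38 in YPS163 MATa, from -0.69 to 0.41 in hap1D and from -0.54 to 0.63 in msn2D, and RPS9A from -1.23 to 0.07 in YPS163 MATa. In YPS163 MATa the replicate block gave -0.13 for RPL41A and -0.21 for RPL41B, array 3 as deposited gave -0.32 for RPL41A, and array 3 moved gave -0.50 for RPL41B. The paralogue pair test and its alternatives were not run.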
